A study of Mus musculus with 6 samples.

Results

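A set of 9 genes of heme and iron handling was followed in muscle macrophages (MPs), out of the 13008 genes in the table. These were Alas1 and Fech of heme synthesis, Hmox1, Blvra and Blvrb of heme breakdown, Tfrc of iron uptake, Fth1 and Ftl1 of iron storage, and Slc40a1 of iron export. Of these, 8 were chosen for their function. Alas1 was chosen by its normalized values in the very groups compared here, between which it differed, so its difference is a description and not a test. RNA-seq was performed on GFP+/Ly6CLow MPs sorted from cardiotoxin-injured muscles on day 5, in 3 Control and 3 Cripto KO samples, to compare MPs with and without the myeloid deletion of Cripto. The labels give all mice as male C57BL/6J, 3 months old. Cripto KO mice are labelled Tg:LysMCre::Cripto-/-, and the study's methods describe floxed Cripto alleles, the LysMCre transgene and the mTmG reporter, which turns GFP on where Cre has acted. The Control mice are labelled wild type, whereas the study describes its GFP-Control mice as LysMCre with the same reporter and without the floxed alleles. LysMCre drives Cre in the whole myeloid lineage, so the deletion was not limited to muscle MPs. The labels do not say whether each sample was 1 animal, so p-values measure the spread between these samples.

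Each value is a normalized read count (reads plus 0.5, per 1000000 of a library size that the authors had normalized). Recovered reads per sample ranged from 12688968 to 14141773 in Control and from 14633880 to 15659847 in Cripto KO. The MP markers Adgre1 (between 1065 and 1384) and Csf1r (between 1566 and 1815) were high in all 6 samples. Tdgf1, the gene of Cripto, was not analysed here, which leaves the knockout labels of these samples without a check at that gene. In separate experiments the study reported that most, not all, Cripto alleles were deleted in sorted GFP+ cells, and that Cripto protein was lower. Control replicates 1 and 2 stood apart. Xist was 171 in Control replicate 1 and at most 0.885 elsewhere, although the labels give only males. The Y-linked genes Ddx3y, Eif2s3y, Kdm5d and Uty were at 0.184, 0.0368, 0.11 and 0.0368 in that sample. In the other samples they were at least 49.1, 53.7, 6.98 and 15.4, so Control replicate 1 has the pattern of a female, against its label. Lyz2, the gene of lysozyme M, was 11066 in Control replicate 2 against 21.2 to 28.3 elsewhere. The Control samples were thus not alike in Lyz2, and whether they share the same genotype was not tested. Differences are log2(Control/Cripto KO), so positive values mean higher expression in Control, and p-values are from limma, with Benjamini-Hochberg adjustment over the whole table.

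Heme is made in steps that begin and end in the mitochondrion. Alas1 encodes the housekeeping form of the enzyme of the first, rate-limiting step, and Fech encodes ferrochelatase, which inserts iron into protoporphyrin in the last. MPs also take in heme from dying red cells and damaged muscle. Heme oxygenase, encoded by Hmox1, opens the ring and frees the iron. The biliverdin reductase encoded by Blvra acts on the biliverdin that results, and Blvrb encodes another biliverdin reductase. The iron is then stored in ferritin, built from the heavy chain of Fth1 and the light chain of Ftl1, or leaves through ferroportin, encoded by Slc40a1. Tfrc encodes the transferrin receptor, which brings iron in from the blood plasma.

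Several of these mRNAs carry iron-responsive elements (IREs), short hairpins bound by the iron regulatory proteins when iron is low. Binding in the 5′ untranslated region holds back translation, whereas binding in the 3′ untranslated region of Tfrc protects the mRNA from decay. The elements are shown because the protein output of a gene with a 5′ element can change without a change in mRNA, whereas the mRNA level of Tfrc is itself under this control. A search of the sense strand of the longest coding transcripts (GENCODE M21, GRCm38) looked for a C, any 5 bases, the loop CAGTGN and 5 bases that pair with those before it, G-T pairs allowed. In each 30-base window below, capitals mark the loop.
Fth1 5′ untranslated region, exon 2 of this transcript, chr19:9982732-9982761, plus strand: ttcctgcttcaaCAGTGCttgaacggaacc
Ftl1 5′ untranslated region, exon 1, chr7:45459778-45459807, minus strand: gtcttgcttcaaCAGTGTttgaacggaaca
Slc40a1 5′ untranslated region, exon 1, chr1:45925464-45925493, minus strand: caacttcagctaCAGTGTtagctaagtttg
Tfrc 3′ untranslated region, exon 19, chr16:32631219-32631248, plus strand: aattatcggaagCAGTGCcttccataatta
Tfrc 3′ untranslated region, exon 19, chr16:32631598-32631627, plus strand: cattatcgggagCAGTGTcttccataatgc
Tfrc 3′ untranslated region, exon 19, chr16:32631663-32631692, plus strand: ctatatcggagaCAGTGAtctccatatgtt
Tfrc 3′ untranslated region, exon 19, chr16:32631710-32631739, plus strand: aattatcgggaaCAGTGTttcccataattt

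The pattern was in the 5′ untranslated region of 20 of 20701 coding genes (0.0966%) and in the 3′ untranslated region of 118 of 20962 (0.563%). Among the 9 genes it was found in Fth1, Ftl1, Slc40a1 and Tfrc and not in these transcripts of Alas1, Hmox1, Blvra and Blvrb. The result for Fech is not reported here. A match describes the letters of a transcript and does not show that the element was bound in these cells.

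The 9 genes spanned a wide range of levels. To compare genes, each normalized value was divided by the length in kb of the longest coding transcript. The ferritin chains were at the top, with means over the 6 samples of 22849 per kb for Ftl1 and 8548 per kb for Fth1, and ranked 2 and 6 of all 13008 genes by normalized value. Hmox1 followed with 1655 per kb and ranked 35 by normalized value. Far below were Blvrb (147 per kb), Blvra (59.8), Slc40a1 (25.5), Alas1 (21.5), Tfrc (13.9) and Fech (4.13). Each gene was above the next in all 6 samples without overlap of the ranges, apart from 2 steps. Slc40a1 was above Alas1 in 3 of 6 samples, and Alas1 was above Tfrc in 4 of 6. The first split followed the groups. Alas1 was at 25.1 to 33.7 per kb in Control, against 16.8 to 22.4 for Slc40a1. In Cripto KO samples Alas1 was at 13.8 to 15.2 per kb and Slc40a1 at 21.7 to 39.0. Alas1 was above Tfrc in every Control sample and in Cripto KO replicate 1 alone. As Alas1 was chosen by these groups, this is a description. Over all 6 samples the ranges of these 3 neighbours in the order overlapped. Their order was another one when all annotated exons were merged to give the length (Alas1 11.8, Tfrc 11.0 and Slc40a1 9.56 per kb). The other 6 genes kept their ranks.

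**Figure D1:**
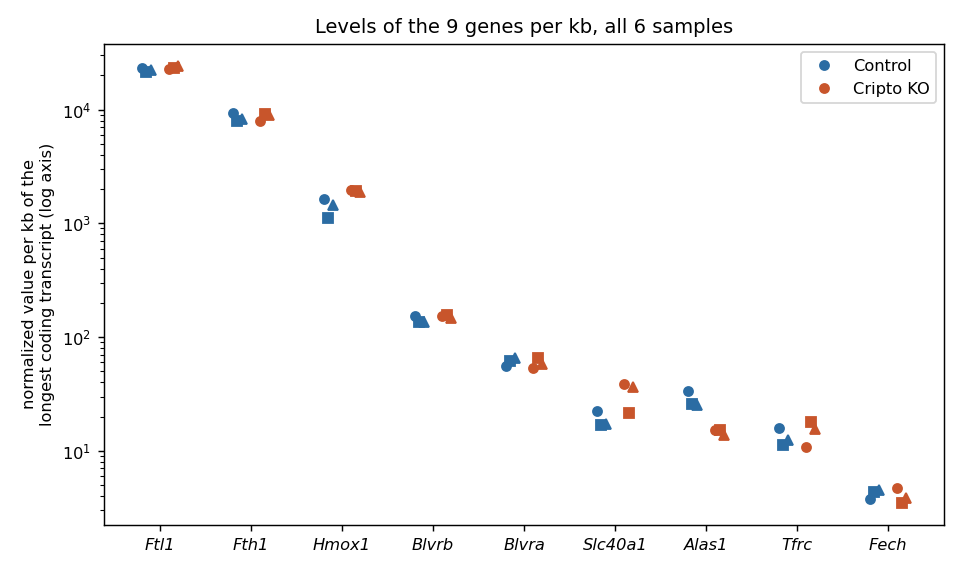
Normalized value per kb of the longest coding transcript (log axis) for the 9 genes, each point 1 of 3 Control or 3 Cripto KO samples. The ferritin chains Ftl1 and Fth1 lie above the other 7 genes in every sample, Hmox1 is the third, and Slc40a1, Alas1 and Tfrc overlap.

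Alas1 (ENSMUSG00000032786, chr9:106233455-106248654, minus strand, GRCm38) was higher in Control MPs. Its normalized value was 115, 88.4 and 85.2 in replicates 1, 2 and 3 of Control, against 51.4, 51.6 and 47.0 in those of Cripto KO. The groups did not overlap, and the Control samples were the more variable, with a mean of 96.1 ± 16.2 against 50.0 ± 2.56 (SD, n = 3 each). The difference was 0.93 (SE 0.11) on the log2 scale, or 1.91-fold, from between 682 and 1557 reads in a sample. Alas1 was among the 17 genes of the table, 0.131% of those tested, with an adjusted p-value under 0.05, which is how it entered the set. Its log2 difference was between 0.80 and 1.01 when 1 sample at a time was left out. The lowest was without Control replicate 1, the highest of the Control samples and the 1 with the pattern of a female. Without Control replicate 3, or without any 1 of the Cripto KO replicates, its adjusted p in limma was between 0.056 and 0.125. In its longest coding transcript 12.1% of the words of 31 bases also occur in 4930500F10Rik, a gene on the opposite strand that overlaps the start of Alas1 and is not in the table. Whether the counting used strand is not stated, so reads from the 2 genes in this stretch cannot be told apart.

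Fech, at the other end of the pathway, showed no such difference. Its normalized value was 24.9, 28.8 and 29.7 in the Control replicates, in the same order, against 31.3, 22.8 and 25.4 in those of Cripto KO. The highest and the lowest value were both in Cripto KO samples, so the groups overlapped. The log2 difference was 0.08 (SE 0.13), with a 95% interval from -0.21 to 0.37 and an adjusted p = 0.901 (limma). The interval leaves out a difference of the size seen for Alas1. In Fech 14.1% of the 31-base words occur in transcripts of other genes.

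Of the 8 genes of the heme synthesis list, 7 were measured (Alas2, the erythroid form, was not among the genes of the table). Alas1 passed the adjusted test, and none of the other 6 had an adjusted or an unadjusted p-value under 0.05 in limma or groups without overlap, beside 0.131%, 8.59% and 14.5% of all genes. The other enzymes of the list had small differences. Alad, of the second step, had normalized values of 9.39 ± 0.957 in Control and 8.83 ± 0.836 in Cripto KO (SD, n = 3), a log2 difference of 0.09. Uros was at 5.32 ± 0.708 and 4.79 ± 0.240 (0.14). Both enzymes act in the building of the porphyrin ring from the product of the first step. Urod had 27.8 ± 1.35 and 26.8 ± 0.891 (0.05), Cpox 8.93 ± 1.62 and 8.44 ± 1.42 (0.08), and Ppox, the 1 gene of the list with a negative difference, 25.3 ± 4.74 and 29.0 ± 1.14 (-0.21). The adjusted p-values of these 5 genes in limma lay between 0.711 and 0.933. The median log2 difference of the 6 measured genes of the list besides Alas1 was 0.08, beside 0.01 for all genes tested.

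Heme breakdown was represented by a gene at a high level, Hmox1 (chr8:75093621-75100589, plus strand). Its normalized value was 2557, 1734 and 2260 in the Control replicates, against 3073, 3009 and 2942 in those of Cripto KO. Every Cripto KO sample was above every Control sample, and the Cripto KO samples were close to one another, with a coefficient of variation of 2.18% against 19.1% in Control. The means were 2184 ± 417 and 3008 ± 65.7 (SD, n = 3), and the log2 difference was -0.48 (SE 0.13), 1.39-fold higher in Cripto KO with a 95% interval from 1.13 to 1.72. The unadjusted p was 0.00565 and the adjusted p = 0.415 in limma, so Hmox1 did not pass the test over all genes. The DESeq2 test on recovered reads gave an adjusted p of 0.0140, within a range from 0.0140 to 0.833 over all alternatives. The log2 difference was -0.32 without Control replicate 2, the sample with high Lyz2 and the lowest Hmox1, and -0.60 without Control replicate 1.

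The value of Hmox1 per kb was 42.5 to 57.5 times that of Alas1 in Control samples, against 126 to 135 times in Cripto KO samples. The ratio is a description, since Alas1 is in it. The ratio of Hmox1 to Hmox2, the constitutive heme oxygenase, was 12.6 to 18.4 per kb in Control, against 23.8 to 28.1 in Cripto KO samples. Hmox2 itself was at 154, 151 and 150 in Control, against 120, 140 and 132 in Cripto KO replicates, a log2 difference of 0.22 (SE 0.07, unadjusted p 0.0129 and adjusted p = 0.489 in limma). The 2 heme oxygenases thus had differences of opposite sign, each without overlap between the groups and neither past the adjusted test.

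The biliverdin reductases had close values in the groups. Blvra (chr2:127070665-127097084, plus strand) was at 65.1, 71.4 and 76.0 in Control, against 61.6, 75.6 and 66.8 in Cripto KO replicates. Its groups overlapped, with a log2 difference of 0.06 (95% interval from -0.15 to 0.28, adjusted p = 0.892 in limma). Blvrb (chr7:27447978-27466144, plus strand), which also reduces flavins, was at 158, 140 and 141 in Control, against 158, 160 and 151 in Cripto KO replicates. Control replicate 1 reached the Cripto KO samples, and the log2 difference was -0.10 (95% interval from -0.26 to 0.06, adjusted p = 0.726 in limma). Neither interval includes a difference as large as that of Hmox1. The value of Blvrb was between 2.09 and 2.90 times that of Blvra per kb over all 6 samples.

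**Figure D2:**
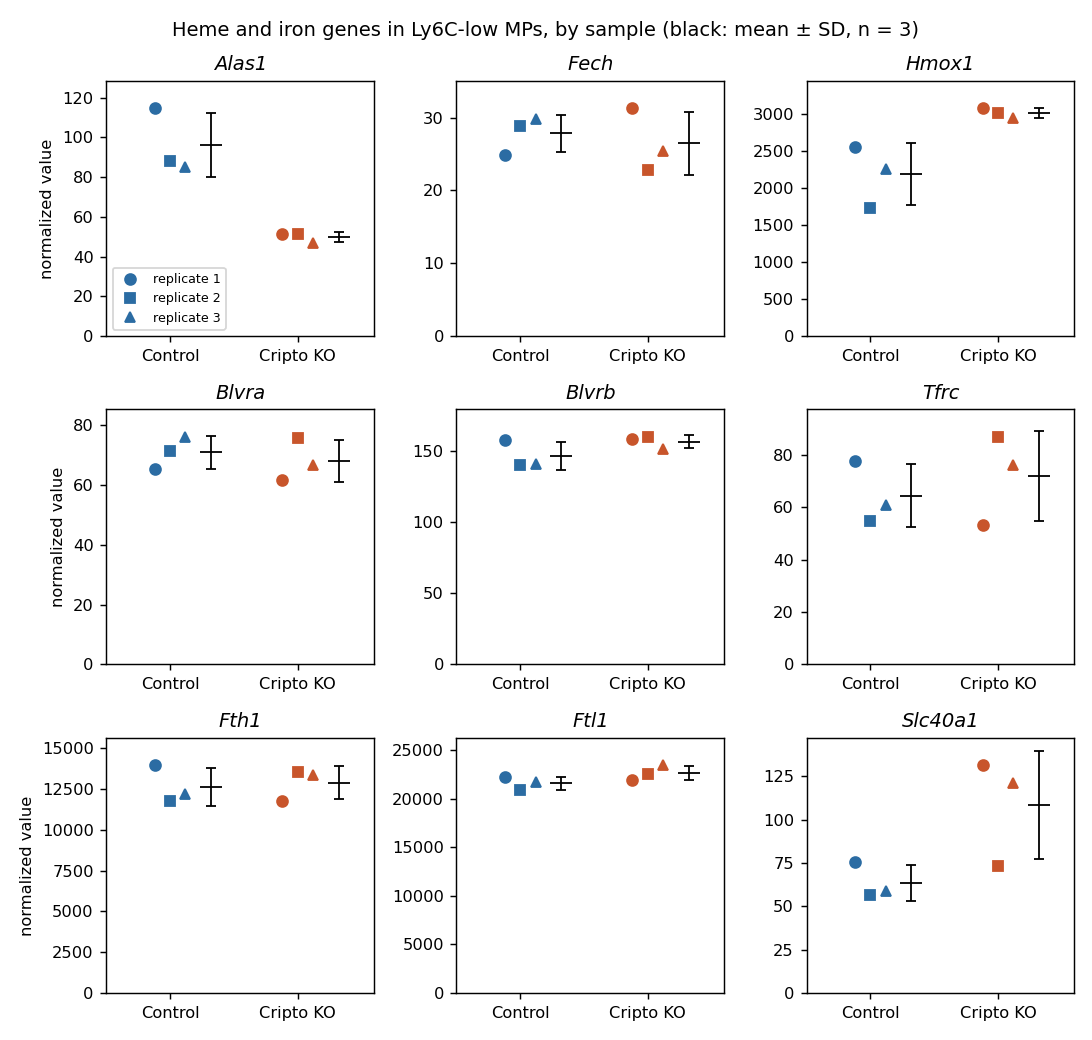
Normalized value of each of the 9 genes in 3 Control and 3 Cripto KO samples, with replicate 1 as circles, 2 as squares and 3 as triangles, the mean and SD in black (n = 3) and an axis from 0 in each panel. The groups do not overlap for Alas1 (115 to 85.2 against 51.6 to 47.0) and Hmox1 (1734 to 2557 against 2942 to 3073) and overlap for the other 7 genes.

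Iron storage did not differ between the groups beyond the spread of the samples. Fth1 (chr19:9980598-9985098, plus strand), whose chain oxidizes iron for storage, was at 13959, 11740 and 12221 in Control, against 11773, 13551 and 13385 in Cripto KO replicates. The groups overlapped, and the log2 difference was -0.03 (95% interval from -0.33 to 0.27, adjusted p = 0.966 in limma). Ftl1 (chr7:45457944-45459884, minus strand), the chain that helps the iron core form, was at 22213, 20898 and 21678 in Control, against 21943, 22538 and 23434 in Cripto KO replicates. Its replicates were the closest of the 9 genes in Control, with coefficients of variation of 3.06% in Control and 3.31% in Cripto KO. The log2 difference was -0.07 (95% interval from -0.38 to 0.25, adjusted p = 0.923 in limma). Together the 2 chains took between 3.14% and 3.65% of all recovered reads. Ftl1 was between 2.46 and 2.88 times Fth1 per kb, and the ranges of this ratio in the groups overlapped. The level of Ftl1 is uncertain, since 94.9% of its 31-base words occur in other genes, and 80.6% of its words occur in the copy Ftl1-ps1, which was at 100.4 ± 8.97 in Control and 106 ± 8.91 in Cripto KO (SD, n = 3). The share for Fth1 was 7.92%. These values are mRNA levels, and the data hold no measure of ferritin protein.

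Tfrc and Slc40a1, the ways into and out of the cell, varied more between samples. Tfrc (chr16:32608920-32632794, plus strand) was at 77.6, 54.5 and 60.9 in Control, against 53.2, 86.8 and 76.1 in Cripto KO replicates. The lowest and the highest value were both in Cripto KO samples. The means were 64.4 ± 11.9 and 72.0 ± 17.2 (SD, n = 3), and the log2 difference was -0.15 (95% interval from -0.56 to 0.27, adjusted p = 0.856 in limma). This interval is wide enough to hold a difference of 1.39-fold in favour of Cripto KO, the size seen for Hmox1.

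Slc40a1 (chr1:45908068-45926523, minus strand), encoding the iron exporter, was at 75.4, 56.6 and 58.6 in Control against 131, 73.0 and 121 in Cripto KO replicates 1, 2 and 3. Cripto KO replicates 1 and 3 were above every Control sample, whereas Cripto KO replicate 2 was just below Control replicate 1. The means were 63.5 ± 10.3 and 109 ± 31.2 (SD, n = 3). The log2 difference was -0.74 (SE 0.21), 1.67-fold higher in Cripto KO with a 95% interval from 1.21 to 2.31. The unadjusted p was 0.00562 and the adjusted p = 0.415 in limma, so it did not pass the test over all genes. Leaving out Cripto KO replicate 2 gave -1.004 and leaving out Cripto KO replicate 1 gave -0.58. The value of Slc40a1 per kb was 1.39 to 1.51 times that of Tfrc in Control, against 1.22 to 3.59 times in Cripto KO samples, where Slc40a1 was lowest and Tfrc highest in replicate 2.

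Of the 9 genes, Alas1 alone had an adjusted p-value under 0.05 in limma, on the Control side, where 0.0846% of all genes passed, and none was on the Cripto KO side, where 0.0461% passed. Alas1, Hmox1 and Slc40a1 had an unadjusted p-value under 0.05, 3 of 9, or 2 of the 8 besides Alas1, beside 8.59% of all genes tested. Alas1 was higher in Control, as were 4.6% of all genes at that threshold, and Hmox1 and Slc40a1 were lower in Control, as were 3.99%. The groups did not overlap for Alas1 and Hmox1, 2 of 9, or 1 of the 8 besides Alas1 (12.5%), beside 14.5% of all genes (8.02% higher and 6.43% lower in Control). As Alas1 was chosen by these values, counts that include it cannot be set beside all genes. The other 8 were chosen with earlier results of these data known, so their counts are a description. Their share without overlap is near that of all genes. The median log2 difference of the 8 besides Alas1 was -0.08, beside a median of 0.01 for all genes. Of these 8 genes, 2 were higher in Control, beside 52.6% of all genes. As these are bulk samples, fewer cells of a type and less RNA per cell cannot be told apart.

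**Figure D3:**
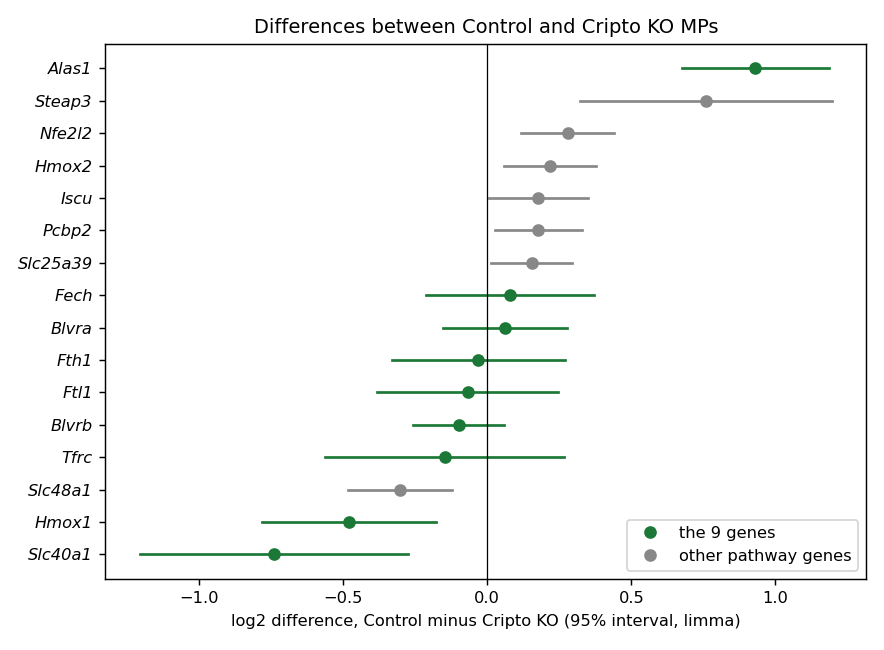
Log2 difference between Control and Cripto KO samples (n = 3 each, limma) for the 9 genes (green), with 95% intervals. Positive values mean higher in Control. Grey marks the other genes of the lists with an unadjusted p-value under 0.05 and no overlap. The grey genes were chosen by their p-values, so their intervals leave out 0 by that choice. Alas1 (0.93) lies to the Control side, Hmox1 (-0.48) and Slc40a1 (-0.74) lie to the Cripto KO side, and the intervals of the other 6 of the 9 include 0.

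Markers of other cells were compared because contaminating cells could carry heme and iron genes. Of the 10 erythroid markers 4 were measured, the globins, with a summed value of 0.735 to 2.65 in Control, against 0.92 to 3.56 in Cripto KO samples, and Alas2, Slc4a1, Ahsp, Epb42, Klf1 and Gata1 were not among the genes of the table. The globins were thus near 0 in all 6 samples. All 6 fibroblast markers were measured and lower in Control, 4 of them without overlap (beside 6.43% of all genes lower in Control) and 5 with an unadjusted p-value under 0.05 in limma (beside 3.99%), with sums of 459 to 481 in Control, against 540 to 591 in Cripto KO samples. Their part in the values of Hmox1 and Slc40a1, which had higher means in the same group, was not tested. The 7 muscle fiber markers, all measured, summed to 72.2, 35.2 and 32.8 in Control against 49.6, 17.9 and 13.0 in the Cripto KO replicates. Of these, 6 were higher and 1 lower in Control. For 4 of the 7, all higher in Control, the unadjusted p-value was under 0.05 in limma (beside 4.6% of all genes). The groups did not overlap for 1 of them, higher in Control (beside 8.02%). Their part in the values of Alas1, which was higher in the same group, was not tested. The 8 MP markers had sums of 5679 to 6215 in Control, against 5521 to 6092 in Cripto KO samples, and the 5 endothelial markers of 35.9 to 44.1 and 34.4 to 40.6. Of 7 neutrophil markers 6 were measured, with sums of 98.6 to 106 in Control, against 93.2 to 101 in Cripto KO samples, and S100a9 and Retnlg were at 3 reads or fewer in every sample. Of 6 lymphocyte markers 1 was measured, at 3 reads or fewer in every sample.

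The other genes of the pathway were described from lists of heme and iron genes, of which 74 of 82 were measured, 65 of them besides the 9 above. None of the 65 had an adjusted p-value under 0.05 in limma, beside 0.131% of all genes. An unadjusted p-value under 0.05 was found for 7 (10.8%), 6 higher and 1 lower in Control, beside 4.6% and 3.99% of all genes. For 10 of the 65 (15.4%) the groups did not overlap, 9 of them higher and 1 lower in Control, beside 8.02% and 6.43% of all genes. Taken in both directions, the shares of 10.8% and 15.4% are near the 8.59% and 14.5% of all genes. Taken by direction, 6 of the 7 and 9 of the 10 were higher in Control, and this lean was not tested. The median log2 difference of the 65 genes was 0.01.

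Among the 7, Steap3, a ferrireductase that works beside the transferrin receptor in endosomes, had the largest difference. It was at 98.2, 78.5 and 111 in Control, against 50.2, 45.4 and 77.3 in Cripto KO replicates, without overlap (log2 difference 0.76, SE 0.19, adjusted p = 0.379 in limma). Tfrc, its partner in the transferrin route, had groups that overlapped. Slc48a1, which moves heme out of the phagolysosome, was the 1 gene of the 7 that was lower in Control, at 229, 195 and 224 against 273, 250 and 276 in Cripto KO replicates (-0.30, SE 0.08, adjusted p = 0.407 in limma). Nfe2l2, a transcription factor that activates Hmox1, ferritin and Slc40a1, was higher in Control, at 621, 564 and 568 against 453, 494 and 498 (0.28, SE 0.07, adjusted p = 0.379 in limma). Bach1, the repressor of the same genes, was at 355, 275 and 303 in Control, against 249, 304 and 285 in Cripto KO replicates, with overlap. It was named after its values were seen.

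The remaining 3 of the 7, beside Hmox2 above, had small differences. Pcbp2, an iron chaperone that loads ferritin, was at 283, 316 and 294 in Control, against 256, 272 and 261 in Cripto KO replicates (log2 difference 0.18, adjusted p = 0.523 in limma). Slc25a39, a mitochondrial carrier, was at 124, 130 and 123 against 117, 110 and 112 (0.15, adjusted p = 0.538). Iscu, the scaffold on which iron-sulfur clusters are built, was at 88.1, 83.3 and 75.2 against 70.9, 74.1 and 72.6 (0.18, adjusted p = 0.562). The lists on heme A and cytochrome assembly (3 measured) and on iron export besides Slc40a1 (Cp and Hfe) held no gene with an unadjusted p-value under 0.05, beside 8.59% of all genes. Hpx (log2 difference 1.22) and Lcn2 (-0.87) stand out in the plot of the lists, but had between 2 and 6 and between 0 and 4 reads in a sample. Both were named after their values were seen.

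**Figure D4:**
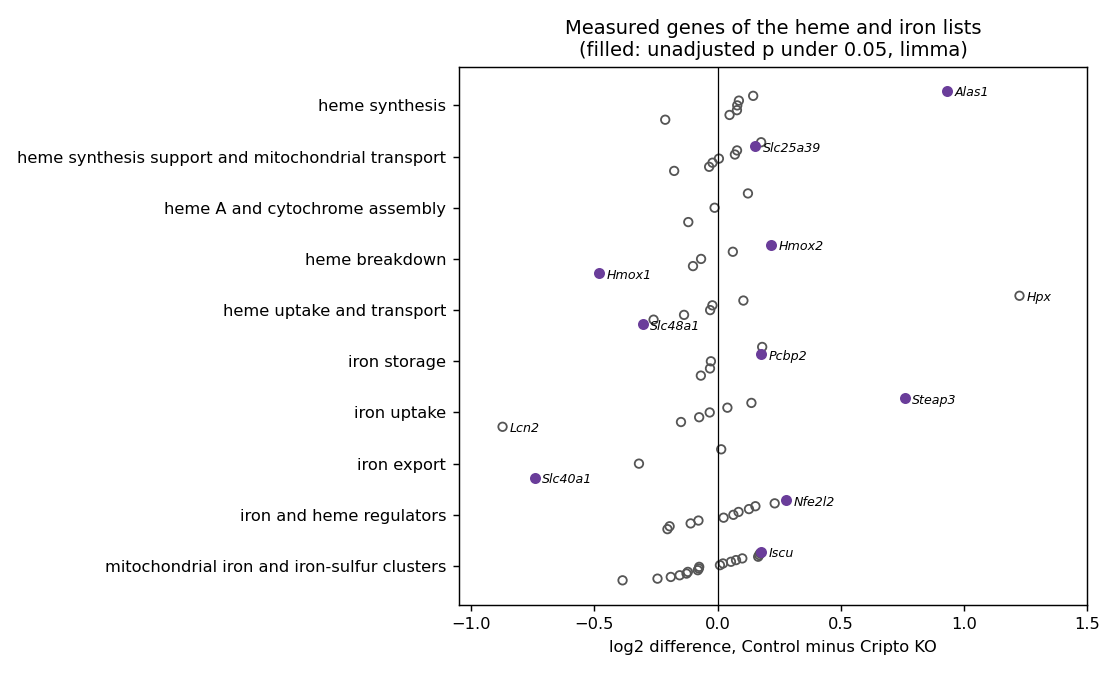
Log2 difference between Control and Cripto KO samples for the measured genes of 10 heme and iron lists, each point 1 gene, filled where the unadjusted limma p-value is under 0.05. Most genes lie near 0, Alas1 (0.93) and Steap3 (0.76) lie to the Control side and Slc40a1 (-0.74) and Hmox1 (-0.48) to the Cripto KO side, while Hpx and Lcn2 rest on 6 reads or fewer.

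Alas1 lies on chromosome 9, as does Tdgf1, the gene targeted in the Cripto KO mice, with 4.70 Mb between the starts of the genes. The 13 measured genes that start within 250 kb of the start of Alas1 were therefore compared as well. On the side of lower coordinates, Wdr82 (log2 difference 0.01), Ppm1m (-0.09), Twf2 (0.06) and Tlr9 (-0.01) had differences near 0. None of these 4 had an unadjusted p-value under 0.05 in limma, and the groups did not overlap for 1 of them, Ppm1m, lower in Control. On the side of higher coordinates, toward Tdgf1, 8 of 9 genes were higher in Control and 7 of 9 had an unadjusted p-value under 0.05, beside 8.59% of all genes. The groups did not overlap for 6 of these 9, all higher in Control, beside 8.02% of all genes in this direction.

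Dusp7, a phosphatase of MAP kinases that starts 120 kb from Alas1, was at 47.1, 40.0 and 46.4 in Control, against 27.5, 25.9 and 25.8 in Cripto KO replicates. Its log2 difference was 0.75 (SE 0.09, adjusted p = 0.0235 in limma), and it was the 1 of the 13 neighbours past the adjusted test. The call was lost without Control replicate 3 (adjusted p = 0.135 in limma), and without Cripto KO replicate 1 (0.053), 2 (0.137) or 3 (0.0999). With all samples kept it was lost in 3 of 11 alternatives, with adjusted p-values up to 0.168. Rpl29, a ribosomal protein gene, was at 193, 153 and 161 against 115, 121 and 112 (0.53, adjusted p = 0.0976 in limma). Abhd14b was at 10.8, 7.61 and 5.75 against 3.08, 2.80 and 2.10 (1.57, adjusted p = 0.0894 in limma), from between 30 and 146 reads in a sample. Neither Rpl29 nor Abhd14b passed the adjusted test at 0.05.

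The other 6 genes on this side were at low levels. Poc1a (0.56), Abhd14a (0.72), Pcbp4 (0.82) and Parp3 (0.49) were higher in Control with unadjusted p-values under 0.05 and adjusted p-values between 0.426 and 0.559 in limma. Acy1 (0.18) and Rrp9 (-0.24) did not reach an unadjusted p-value under 0.05. The spans of Abhd14a and Abhd14b overlap, as do those of Rrp9 and Parp3, so their reads may be split between them. The floxed allele and the DNA around it come with the Cripto KO group, and an effect of the loss of Cripto on Alas1 cannot be told apart from an effect of that stretch of chromosome 9.

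**Figure D5:**
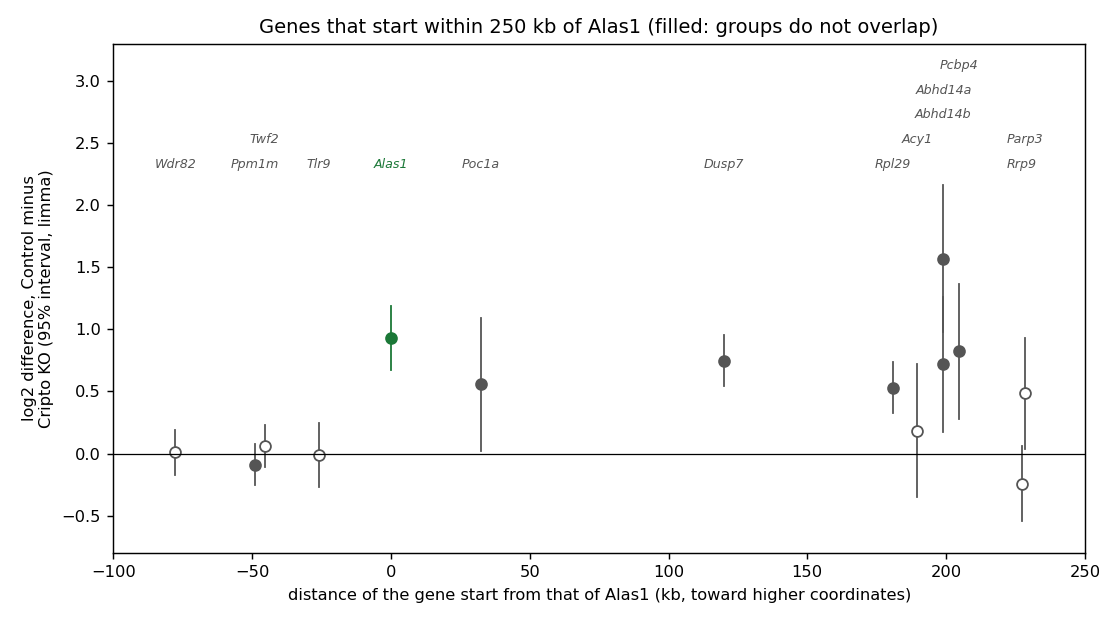
Log2 difference between Control and Cripto KO samples (n = 3 each, limma, bars are 95% intervals) against the distance in kb of each gene's start from that of Alas1, for Alas1 (green) and 13 neighbours, filled where the groups do not overlap. The 4 genes at lower coordinates lie between -0.09 and 0.06, and 8 of the 9 at higher coordinates lie above 0, up to 1.57 for Abhd14b.

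Genes with a profile like that of Alas1 were ranked by the root mean square difference of centred log2 values over the 6 samples, among 11959 genes with a mean value of at least 1. The 5 closest were Plcd1 (0.153), Dusp7 (0.155), Pcbp4 (0.161), Cxcl9 (0.167) and Pxmp2 (0.175). Of these 5, 3 (Plcd1, Dusp7 and Pcbp4) are on chromosome 9. Dusp7 and Pcbp4 are among the neighbours above and were already counted there. As the 5 were picked by likeness to Alas1, itself chosen by these values, their positions are a description and not a test. Cxcl9, a chemokine on chromosome 5, was at 14.6, 13.2 and 10.2 in Control, against 7.08, 8.32 and 5.48 in Cripto KO replicates. Plcd1 and Pxmp2 rest on between 17 and 30 and between 11 and 28 reads in a sample. None of the 9 genes of heme and iron handling was among the 5.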

How the data were processed

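RNA-seq of GFP+/Ly6CLow MPs was analysed in 3 Control and 3 Cripto KO samples. The reads were quality checked with FastQC, trimmed with cutadapt 1.7.1 and quantified with RSEM 1.2.20 on the mouse transcriptome (GRCm38, release 91), and the authors deposited a normalized signal per gene and sample, made with limma and edgeR per the submitters' processing notes. Tested on the table, each value is the gene's reads plus 0.5, per 1000000 of a scaled library total. Of 78048 values 100.0% gave a whole number of reads, within 0.01 read. Values of 3 reads were between 0.222 and 0.286, and limits of this kind cover counting error only.

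For the main test, lmFit and trended eBayes of limma 3.58.1 (R 4.3.3) were run on the log2 of the values, with no pseudocount, across the 13008 genes, with Benjamini-Hochberg adjustment. The edgeR 4.0.16 quasi-likelihood test on recovered reads called 17 genes at an adjusted p-value of 0.05, as did limma. The tests were first tested on simulated data. The alternatives tried were a pseudocount of 0.5 or 1, a filter at a mean value of 1, median centring, quantile normalization, eBayes without a trend or robust, voom, edgeR, DESeq2 1.42.0, a replicate block, leaving out each sample, and merged exons as gene length.

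The 9 genes, the lists and the alternatives were chosen with earlier results of these data known. Named were the 9 genes, the measured genes of heme synthesis, genes of the other lists with an adjusted p-value under 0.05 or with groups that did not overlap and an unadjusted p-value under 0.05, the measured genes starting within 250 kb of Alas1, and the 5 genes closest to it in profile. Positions, exons and transcript sequences are from GENCODE M21 on GRCm38. Coordinates of Fech and protein sequences are not given, and Tdgf1 was not analysed here. Some genes of the lists are not reported here. Python 3.11.15 with numpy 2.4.6, pandas 2.3.3 and matplotlib 3.10.9 was used for tables and figures.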

Additional observations from a re-analysis of the deposited data

How the results depend on the processing

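The log2 difference of Alas1 stayed positive under all 17 alternatives, while its adjusted p passed 0.05 in 8 of the 11 that kept all samples. It missed it with quantile normalization (0.89, adjusted p = 0.060), eBayes without a trend (0.93, 0.251) and the replicate block (0.93, 0.057). Leaving out 1 sample gave between 0.80 and 1.01, with adjusted p-values between 0.0054 and 0.125, passing without Control replicate 1 and without Control replicate 2. The adjusted p of Hmox1 passed 0.05 in DESeq2 alone (-0.47). The 17 genes past the adjusted test became 6 with quantile normalization, 5 without a trend, 31 with the robust option, 9 with voom, 71 with DESeq2 and 2 with the replicate block, and between 5 (without Cripto KO replicate 2) and 31 (without Control replicate 1) when 1 sample was left out. The 1 heme and iron gene among them became 0 with quantile normalization, without a trend and with the replicate block, 2 with DESeq2, and between 0 and 1 when 1 sample was left out. Same-numbered samples did not deviate together (r = -0.210, -0.00522 and -2.46e-05), and no sample correlated best with its own number, so the numbers were not taken as pairs. Small differences changed sign when 1 sample was left out: Fech ranged from -0.0229 to 0.204, Blvra from -0.0072 to 0.141, Fth1 from -0.104 to 0.0204, Tfrc from -0.352 to 0.0012, Cpox from -0.0656 to 0.214, Wdr82 from -0.0335 to 0.0491 (and -0.0202 with quantile normalization, -0.0032 with voom and with edgeR and -0.0016 with DESeq2) and Tlr9 from -0.0754 to 0.078. Of 153 combinations of the 9 genes and an alternative, 140 kept side of the threshold without a change of sign, 1 of them at 0.0 (Fth1 with quantile normalization). The cause of these changes was not tested. The 9 genes had at least 322 reads in every sample, the lowest being in Fech.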
